A study of Arabidopsis thaliana with 12 samples.

Results

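The night-to-day change in rosettes of the Arabidopsis thaliana mutant bou-2 was described across all genes. It rests on 6 RNA-Seq libraries, 3 of bou-2 at day and 3 of bou-2 at night, of 12 libraries in all. The other 6 libraries are from WT (Col-0) at the same times. bou-2 is a T-DNA line in the Col-0 background with its insertion in the second exon of BOU (AT5G46800; chromosome 5, 18988588 to 18990867 in TAIR10.1), which encodes a mitochondrial carrier of the photorespiratory cycle, and it is a single mutant line. All plants, WT included, grew for 35 days at 3000 ppm CO2 with 12 h of light and 12 h of dark, and were kept at ambient CO2 (400 ppm) for the last 24 h. The deposited table holds 33326 genes, each represented here by the transcript with the highest mean level in WT, and 20458 of them had enough counts to be tested in the bou-2 comparison. The other 12868 genes were not tested.

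The sources differ on the harvest. It is placed at 2 h before and 2 h after light onset in the series' description, and at 3 h before and about 10 min after it in the methods. The sample titles name the beginning of the day for the libraries called day here, while other label fields of the same libraries name its end. The tissue is given as mature leaves in the labels and as whole rosettes in the methods. Time after light onset, time of day and light itself cannot be told apart in this comparison. In bulk RNA, fewer cells of a type and less RNA per cell cannot be told apart either.

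The labels hold for BOU as far as its transcript can show. BOU stood at 80.6, 80.7 and 80.2 TPM at day and 65.2, 67.005 and 65.5 TPM at night in bou-2, and at 139 to 230.4 TPM (the share of transcript molecules, scaled to a fixed total) in the 6 WT libraries. The bou-2 libraries were thus all below the WT libraries, and between day and night in bou-2 BOU did not pass the test (log2 change 0.43 ± 0.14, adjusted p = 0.066). BOU stayed uncalled in 18 of 23 alternatives. Summed estimated counts ran from 15911356 to 20952513 in the bou-2 day libraries and from 24691089 to 30278172 in the bou-2 night libraries. The transcript of AT2G01021 ranged from 6924 to 69530 TPM over the 6 bou-2 libraries, highest in bou-2 day library 2. In TPM as deposited, 32.2% of the genes tested had all 3 bou-2 day libraries below all 3 night libraries in TPM, against 13.3% with all 3 above. TPM is therefore printed as the level in each library, while changes are log2 fold changes from counts scaled by TMM (trimmed mean of M-values), which set the median change of all genes at -0.01. The counts of genes called stayed at 1572 higher (7.68% of those tested) and 1574 lower (7.69%) with AT2G01021 left out.

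Plants follow the day with a circadian clock, a set of transcription factors that repress each other in turn. CCA1 and LHY are made around dawn, the PRR proteins follow through the day, and GI, TOC1 and the evening complex of ELF3, ELF4 and LUX follow later. Light adds to this through phytochromes, cryptochromes and the UV-B receptor, whose signals are carried by HY5, the PIF factors and the B-box (BBX) family. Photosynthesis starts with light, starch is built during the day and is broken down at night, and photorespiration, in which BOU acts, runs only in the light.

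Clock proteins bind short DNA letters, and the upstream bases of clock genes that moved in each direction are shown so that these letters can be seen in place. The sequences are RefSeq's for TAIR10.1, 250 bases that end just before the gene start, read 5′ to 3′ on the gene's strand. Capitals mark matches on either strand to the G-box (CACGTG), the evening element (AAAATATCT), the CCA1-binding site (AAAAATCT) and the I-box (GATAAG). PRR9 and LNK3 were higher at day, and TOC1 and RVE2 were lower.
PRR9, chr2:19232357-19232606, plus strand: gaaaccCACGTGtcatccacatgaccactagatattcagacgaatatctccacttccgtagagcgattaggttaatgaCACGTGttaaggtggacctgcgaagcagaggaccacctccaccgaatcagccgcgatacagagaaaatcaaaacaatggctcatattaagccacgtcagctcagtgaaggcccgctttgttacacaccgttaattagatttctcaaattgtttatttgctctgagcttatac
LNK3, chr3:3923265-3923514, plus strand: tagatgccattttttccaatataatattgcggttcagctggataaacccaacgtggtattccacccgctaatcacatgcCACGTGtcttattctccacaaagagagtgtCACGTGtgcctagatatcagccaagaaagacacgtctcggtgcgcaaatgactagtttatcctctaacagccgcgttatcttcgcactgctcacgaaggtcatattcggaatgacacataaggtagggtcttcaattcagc
TOC1, chr5:24674713-24674962, plus strand: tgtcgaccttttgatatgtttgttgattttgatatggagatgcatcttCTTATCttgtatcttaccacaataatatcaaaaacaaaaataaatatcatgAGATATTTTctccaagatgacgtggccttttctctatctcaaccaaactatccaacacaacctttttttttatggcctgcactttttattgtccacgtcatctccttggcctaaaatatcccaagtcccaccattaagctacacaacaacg
RVE2, chr5:14753089-14753338, minus strand: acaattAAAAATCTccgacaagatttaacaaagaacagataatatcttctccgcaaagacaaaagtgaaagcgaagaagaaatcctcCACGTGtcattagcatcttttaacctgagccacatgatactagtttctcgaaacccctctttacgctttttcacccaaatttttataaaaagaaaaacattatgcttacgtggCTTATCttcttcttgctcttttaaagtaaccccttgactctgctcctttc
The G-boxes began 244 and 172 bases before the start of PRR9 and 171 and 141 bases before that of LNK3. In TOC1 an evening element lay on the reverse strand 151 bases before the start and an I-box at 202 bases. RVE2 held a CCA1-binding site at 244, a G-box at 163 and an I-box at 50 bases before its start. Over windows of 300 bases (250 before and 50 from the start), a G-box was found in 8.89% of the 19747 tested genes with a window, in 14% of the 1540 called higher and in 20.7% of the 121 with a log2 change of at least 2. The evening element was found in 3.03% of the tested genes, 5.79% of the 1554 called lower and 9.68% of the 124 with a log2 change of -2 or less. The I-box was found in 14.9% of the tested genes, 18.9% of those called lower and 29.8% of the strongest falls. The G-box was also found in 9.14% of the genes called lower and in 11.3% of the strongest falls. For the CCA1-binding site the shares were 8.09% of the tested genes, 9.48% of those called higher and 7.79% of those called lower. In all 6 motifs were searched. The other motifs, telo-box (5.53% of the tested genes) and site II element (18.9%), were rarer in both directions. Their shares were 3.64% and 14% among genes called higher, and 3.35% and 14.1% among those called lower. These matches are letters in a window and not measured binding sites. In the annotation as a whole the G-box was in 7.05%, the evening element in 2.63% and the I-box in 14.9% of 33047 windows.

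Between night and day 1572 genes were significantly higher at day in bou-2 and 1574 were lower, which is 7.68% and 7.69% of the genes tested (adjusted p under 0.05, edgeR), or 15.4% in either direction. The median change was 0.78 on the log2 scale among the genes called higher and -0.70 among those called lower. A log2 change of at least 1 was reached by 556 genes higher and 503 lower, and one of at least 2 by 134 and 125. All 1574 genes called lower, and 1500 of the 1572 called higher, had day and night libraries that did not overlap in TPM in the direction of the call. Over all genes tested the same held for 32.2% (day below night) and 13.3% (day above night), so this reads as a description only. On log2(TPM + 1), tested with limma, the median of all genes moved to -0.12 and the calls were 1175 higher and 2739 lower, so that 30.02% of the calls were higher in place of 49.97%. Without bou-2 day library 2, night library 2 or night library 3 the genes called higher numbered 1041, 977 and 1022, and without any 1 of day libraries 2 and 3 and night libraries 1, 2 and 3 those called lower numbered 718, 924, 763, 876 and 786.

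**Figure D1:**
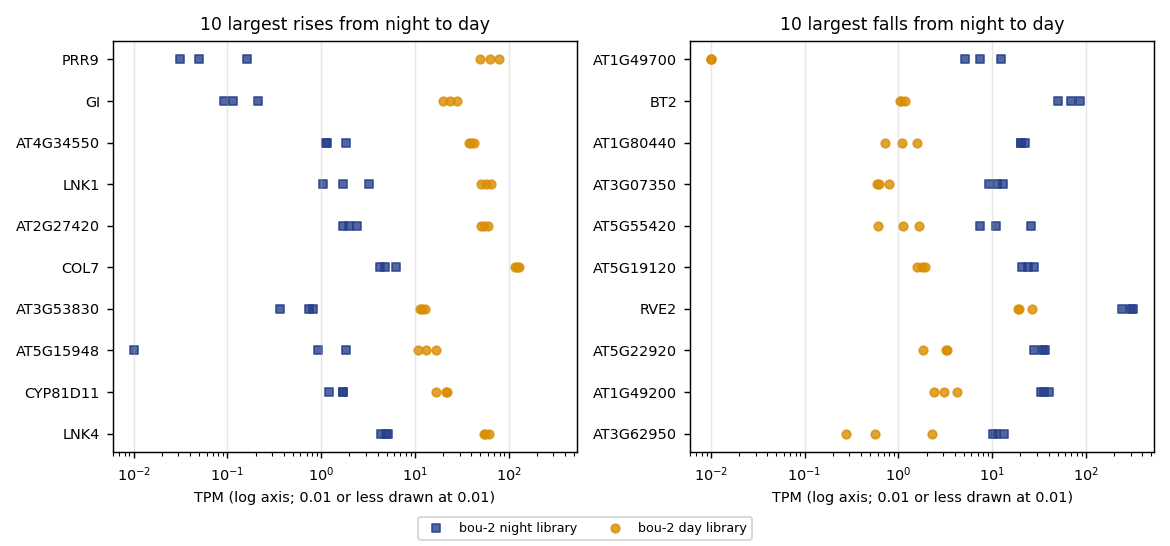
TPM (log axis) in each of the 3 bou-2 day and 3 bou-2 night libraries, for the 10 genes with the largest rise and the 10 with the largest fall; values of 0.01 or less are drawn at 0.01. The day points of PRR9 sit between 49.8 and 78.4 TPM and its night points between 0.0308 and 0.162 TPM, while BT2 runs the other way, from 1.03 to 1.16 TPM at day and from 50.9 to 85.7 TPM at night.

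The largest rise was that of PRR9 (AT2G46790; chromosome 2, 19232607 to 19235179), a clock repressor of the morning. PRR9 stood at 63.7, 49.8 and 78.4 TPM at day and 0.0308, 0.0491 and 0.162 TPM at night, a log2 change of 9.75 ± 0.33, adjusted p = 1.4e-07. GI (AT1G22770; chromosome 1, 8061751 to 8067790), which stabilizes the blue light receptor ZTL, stood at 23.5, 19.8 and 28.1 TPM at day and 0.0924, 0.115 and 0.214 TPM at night (log2 change 7.54 ± 0.23, adjusted p = 9.5e-08). Both were close to absent in every night library and present in every day library. LNK1, a co-activator of the clock, stood at 56.9, 50.6 and 65.2 TPM at day and 1.06, 1.70 and 3.23 TPM at night (log2 change 4.99 ± 0.33, adjusted p = 5.6e-06). COL7, a B-box protein also known as BBX16, stood at 129, 117 and 121 TPM at day and 4.84, 4.24 and 6.23 TPM at night (log2 change 4.72 ± 0.17, adjusted p = 1.6e-07).

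The other large rises included genes outside the clock lists. AT4G34550, which carries no description in the table, stood at 37.3, 39.3 and 43.01 TPM at day and 1.14, 1.12 and 1.85 TPM at night (log2 change 4.99). AT2G27420, a predicted cysteine proteinase, stood at 50.4, 59.7 and 54.7 TPM at day and 2.39, 1.99 and 1.71 TPM at night (4.90), and AT3G53830, of the RCC1 family, stood at 11.97, 11.3 and 12.8 TPM at day and 0.813, 0.364 and 0.733 TPM at night (4.39). CYP81D11, a cytochrome P450 that responds to cis-jasmone, stood at 16.6, 21.7 and 21.7 TPM at day and 1.72, 1.70 and 1.21 TPM at night (log2 change 3.83 ± 0.41, adjusted p = 0.00016), whereas no WT library passed 0.113 TPM. AT5G15948 is an upstream open reading frame that shares its reads with the main reading frame beside it, so its log2 change of 4.06 is uncertain.

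Apart from AT1G49700, the largest fall was that of BT2 (AT3G48360; chromosome 3, 17907767 to 17910738), a BTB and TAZ domain protein that acts in nitrogen use. BT2 stood at 1.03, 1.07 and 1.16 TPM at day and 85.7, 69.1 and 50.9 TPM at night, a log2 change of -5.83 ± 0.52, adjusted p = 4.6e-05. AT1G80440, a kelch repeat protein, stood at 1.105, 0.714 and 1.57 TPM at day and 20.1, 20.4 and 22.6 TPM at night (-4.11 ± 0.33, adjusted p = 2.2e-05). AT3G07350, of unknown function, stood at 0.619, 0.590 and 0.793 TPM at day and 11.2, 12.98 and 9.35 TPM at night (-3.93), and AT5G19120, a predicted aspartyl protease, stood at 1.76, 1.60 and 1.91 TPM at day and 27.7, 24.3 and 20.9 TPM at night (-3.65). RVE2, a CCA1-like factor of the clock, stood at 18.8, 26.3 and 19.3 TPM at day and 320.1, 301 and 244 TPM at night (log2 change -3.60 ± 0.23, adjusted p = 4.8e-06). Separate day and night levels were part of the rule that chose these 20 genes and are no finding. Others among the 10 were the RING finger genes AT5G22920 (-3.42) and AT1G49200 (-3.38), the thioredoxin family gene AT3G62950 (-3.35) and the pseudogene AT5G55420 (-3.70). The fall of AT1G49700 (log2 change -9.85, adjusted p = 0.021) belongs to 1 of its transcripts, since over all its transcripts the log2 change was 0.10 (adjusted p = 0.87).

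**Figure D2:**
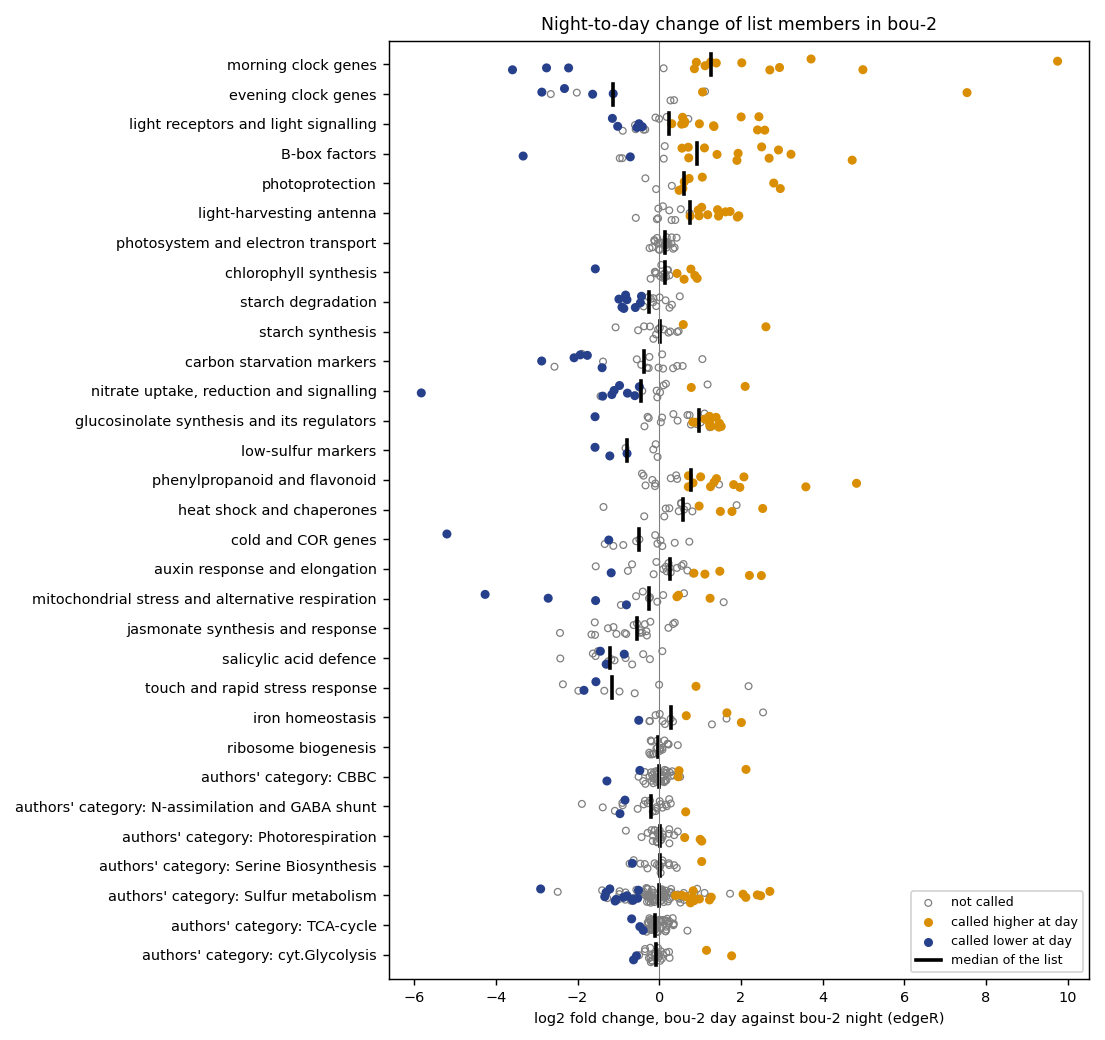
Log2 fold change of bou-2 day against bou-2 night (edgeR) for the tested members of each gene list, 1 point per gene; filled points were called higher (orange) or lower (blue) at an adjusted p under 0.05, open points were not called, and black ticks are list medians. Morning clock genes, B-box factors and glucosinolate genes carry most of their points right of 0, and starch degradation carries its called points left of it.

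Of 15 morning clock genes, 11 were higher at day and 3 lower, with a median log2 change of 1.26, and these counts were the same under every alternative run. The shares over all genes were 7.68% higher and 7.69% lower. LHY, a dawn-phased repressor, stood at 125, 133 and 168 TPM at day and 78.9, 61.98 and 75.4 TPM at night (1.12 ± 0.14, adjusted p = 0.00039). CCA1, its partner, stood at 249, 177 and 250.04 TPM at day and 129, 135 and 145 TPM at night (0.86 ± 0.11, adjusted p = 0.00068). Both were already abundant at night, and both changed less than PRR9. PRR7, the repressor that follows PRR9, stood at 20.999, 19.8 and 26.1 TPM at day and 3.06, 2.91 and 5.32 TPM at night (2.71 ± 0.20, adjusted p = 1.6e-05). LNK2, LNK3 and LNK4 rose by 2.02, 2.94 and 3.72 on the log2 scale. RVE8, an activator of evening genes, rose by 0.91 and its relative RVE7 by 1.26. The 3 that fell were RVE2, RVE1 (at 19.6, 20.9 and 24.4 TPM at day and 119, 106 and 108 TPM at night; -2.22 ± 0.10, adjusted p = 8.1e-07), which promotes auxin synthesis, and PRR5 (at 0.574, 0.913 and 0.801 TPM at day and 5.21, 5.03 and 7.12 TPM at night; -2.76 ± 0.48, adjusted p = 0.0038), the next PRR protein of the day. Of 11 evening genes 2 were higher and 4 lower (median -1.13). Beside GI, the TCP factor CHE rose (1.06), while TOC1 stood at 8.36, 7.17 and 7.45 TPM at day and 27.01, 24.7 and 27.1 TPM at night (-1.63 ± 0.17, adjusted p = 0.00012) and ELF3 stood at 12.8, 9.91 and 14.6 TPM at day and 30.1, 30.1 and 29.3 TPM at night (-1.13 ± 0.10, adjusted p = 4.2e-05). ELF4 (-2.32) and BOA (-2.88) were lower at day as well, and LUX was not called (1.12, adjusted p = 0.4). A G-box lay in 10 of the 15 morning windows (66.7%) and an evening element in 4 of the 11 evening windows (36.4%). The G-box windows included those of RVE1 and RVE2, which fell, and GI and LNK4, which rose, held none of the motifs marked. An evening element also lay in 3 of the morning windows (20%) and a G-box in 2 of the evening windows (18.2%).

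Of 26 genes of light perception and signalling, 12 rose and 5 fell, beside 7.68% higher and 7.69% lower over all genes. HY5, a bZIP factor of light signalling, stood at 130.2, 151 and 166 TPM at day and 29.2, 28.2 and 34.9 TPM at night, a log2 change of 2.40 ± 0.15, adjusted p = 3.9e-06, and its homologue HYH rose by 0.98. The day libraries of HY5 were all more than 3 times its night libraries. RUP1 and RUP2, repressors of UV-B signalling, rose by 2.58 and 1.33, while the receptor UVR8 fell by 0.42. The call for UVR8 was lost in 16 of 23 alternatives. Among the PIF factors, PIF4, PIF5 and PIF7 rose by 2.44, 2.00 and 1.34, and PIF1 was lower (log2 change -1.15). COP1, the ubiquitin ligase that removes HY5 in darkness, rose by 0.57 with SPA1, SPA3 and SPA4 at 0.62, 0.55 and 0.61. Of the photoreceptors, PHYB was higher (log2 change 0.30), whereas PHYA (-0.55), CRY1 (-0.50) and CRY2 (-1.02) were lower. CRY2 stood at 31.6, 27.9 and 30.2 TPM at day and 64.3, 68.6 and 67.6 TPM at night. The 5 falls were 3 without bou-2 day library 2 or night library 1.

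In the B-box family 12 of 18 members were higher and 2 lower (median 0.91), beside 7.68% higher and 7.69% lower over all genes. BBX28 stood at 70.4, 70.5 and 75.3 TPM at day and 7.18, 7.64 and 10.6 TPM at night (3.22 ± 0.14, adjusted p = 5.3e-07) and BBX31 stood at 87.1, 97.8 and 86.2 TPM at day and 18.3, 16.4 and 17.3 TPM at night (2.51 ± 0.15, adjusted p = 3.9e-06). BBX32, a repressor of light signalling, rose by 2.69, BBX29 by 2.92, BBX30 by 1.93 and BBX24 by 1.90. In contrast BBX14 stood at 14.7, 12.8 and 16.02 TPM at day and 160.04, 154 and 168 TPM at night (-3.33 ± 0.18, adjusted p = 2.4e-06) and its groups lay far apart. BBX21, an activator of HY5, was lower as well (-0.71). CO, the flowering regulator, was not called (-0.91, adjusted p = 0.087).

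Of 10 photoprotection genes 7 rose, beside 7.68% over all genes, with none called lower by edgeR, at an unadjusted p under 0.05, by DESeq2 or by limma. Without bou-2 night library 3 there were 4. ELIP1 and ELIP2 encode early light-induced proteins, which bind pigments under excess light. ELIP2 stood at 1243, 1259 and 1269 TPM at day and 166, 193 and 169 TPM at night (2.96 ± 0.19, adjusted p = 5.2e-06), and ELIP1 stood at 880.3, 938 and 909 TPM at day and 113, 146 and 169 TPM at night (2.80 ± 0.35, adjusted p = 0.00046). ZEP of the xanthophyll cycle rose by 1.05, the stress-enhanced protein SEP2 (AT2G21970) by 0.73, and PSBS, the sensor of excess light, by 0.58.

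Of 21 light-harvesting antenna genes 11 rose, beside 7.68% over all genes, and none was called lower (median 0.75; 1 was lower at an unadjusted p under 0.05, 0 by DESeq2 and 1 by limma). LHCB7 stood at 74.6, 77.04 and 93.3 TPM at day and 23.9, 23.4 and 22.1 TPM at night (1.95 ± 0.14, adjusted p = 9.4e-06), and LHCB2.1 stood at 2248, 2074 and 2149 TPM at day and 776, 916 and 905 TPM at night (1.45 ± 0.13, adjusted p = 5e-05). LHCA1 and LHCA4 of photosystem I rose by 1.04 and 1.18. LHCB1.1, LHCB1.2 and LHCB1.5 were called higher, but the LHCB1 copies are nearly identical, so reads may be split between them. The subunits of the photosystems and of electron transport did not pass the test in either direction (0 of 24 by edgeR, median 0.15), although 2 were higher at an unadjusted p under 0.05, DESeq2 called 1 and limma 0, and edgeR called 1 without WT day library 2 and 2 without WT day library 3. The fit of the 6 bou-2 libraries alone called 3 higher. At an unadjusted p under 0.05, by DESeq2 and by limma none was lower. Of 20 chlorophyll synthesis genes 5 rose, with GUN4 (0.93), CHLH (0.87) and HEMA1 (0.77) at the head, and PORB fell. The 5 rises lay above the 7.68% called higher over all genes, and the 1 fall lay below the 7.69% called lower. PORB, an enzyme that reduces protochlorophyllide in light, stood at 120.2, 85.5 and 73.9 TPM at day and 315, 329.6 and 268 TPM at night (-1.57 ± 0.25, adjusted p = 0.002). Without bou-2 day library 2 or any 1 night library, 3 of the 5 rises were called.

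Of 19 genes of starch breakdown 8 were lower at day, beside 7.69% over all genes, 11 were not called and none was called higher (median -0.26, with 5 above 0; 2 were higher at an unadjusted p under 0.05, 1 by DESeq2 and 0 by limma). DPE1, a disproportionating enzyme of the chloroplast, stood at 5.65, 4.10 and 4.02 TPM at day and 10.7, 10.3 and 9.19 TPM at night (-0.99 ± 0.16, adjusted p = 0.0026). PHS1 and PHS2, the glucan phosphorylases, had log2 changes of -0.92 and -0.83, ISA3 of -0.87 and the phosphatase SEX4 of -0.79. The 8 falls were 5 without bou-2 day library 2 or 3 or night library 2, and 2 and 1 members were called higher without WT day library 1 and 2. Of 15 genes of starch synthesis, 2 rose, beside 7.68% called higher over all genes. GBSS1, the granule-bound synthase that makes amylose, stood at 449, 387 and 430.4 TPM at day and 74.7, 80.8 and 72.9 TPM at night (2.61 ± 0.20, adjusted p = 1.7e-05), and SS2 rose by 0.59. Without WT day library 2 there were 4 rises.

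Of 20 carbon starvation markers, 5 were lower, beside 7.69% over all genes, and none was called higher (median -0.37; 1 was higher at an unadjusted p under 0.05, 1 by DESeq2, 0 by limma and 1 without WT day library 3). They were TPS8, TPS9, TPS10 and TPS11, trehalose phosphate synthase homologues that are known to be made under low sugar, and the bZIP factor BZIP63 (-1.40). TPS8 stood at 3.33, 2.87 and 3.17 TPM at day and 26.01, 25.6 and 24.6 TPM at night (-2.88 ± 0.22, adjusted p = 1.5e-05), and TPS11 stood at 6.34, 5.86 and 6.89 TPM at day and 29.6, 30.8 and 29.1 TPM at night (-2.09 ± 0.19, adjusted p = 5.3e-05). Other starvation markers were not called, as with DIN1 (0.57), DIN10 (0.44) and ASN1 (-1.90, adjusted p = 0.26). ASN1 stood at 2.64, 2.57 and 3.84 TPM at day and 5.20, 15.9 and 15.7 TPM at night. Across all alternatives run, 5 to 8 members of the starvation list were called lower and 0 to 3 higher.

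Of 18 nitrate genes tested, 2 rose and 8 fell (median -0.45). The 2 rises were near the 7.68% called higher over all genes, and the 8 falls lay above the 7.69% called lower. NRT1.1, the nitrate transporter and sensor, stood at 106, 113 and 117 TPM at day and 75.2, 69.2 and 71.6 TPM at night (0.78 ± 0.08, adjusted p = 0.00018). BT1, the close relative of BT2, stood at 156, 180.1 and 201 TPM at day and 51.8, 48.3 and 37.4 TPM at night (2.10 ± 0.21, adjusted p = 0.00011) and so moved against it. The repressors LBD37, LBD38 and LBD39 were lower at day, with log2 changes of -0.60, -1.11 and -1.16. The root-type ferredoxin NADP reductases RFNR1 (-0.49) and RFNR2 (-0.97) and the glucose 6-phosphate dehydrogenase G6PD3 (-0.78), which supply reductant for nitrite reduction, were lower too. Nitrate reductase itself was not called, as NIA1 (0.16) and NIA2 (-0.05) show. The 8 falls were 5 without bou-2 day library 2 or night library 2 or 3.

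Glucosinolates are sulfur-rich defence compounds, and the aliphatic ones are built from methionine. Of 28 tested genes of their synthesis and regulation, 12 rose and 1 fell, with a median log2 change of 0.96. The shares over all genes were 7.68% higher and 7.69% lower. The genes called higher covered side chain elongation (IMD1, IPMI1, IPMI2), its transporter BAT5, the core steps (CYP79F1, CYP79F2, CYP83A1, UGT74B1, SOT17, SOT18) and a side chain oxygenase (FMO GS-OX1), with the glycosyltransferase gene AT2G31790. IMD1 stood at 88.1, 70.9 and 53.5 TPM at day and 30.7, 32.6 and 18.8 TPM at night (1.52 ± 0.29, adjusted p = 0.0068). CYP79F1, which commits elongated methionine to the pathway, stood at 104, 77.2 and 56.8 TPM at day and 40.98, 43.6 and 15.9 TPM at night (1.39 ± 0.39, adjusted p = 0.038). The libraries did not overlap for either gene, but night library 3 was the lowest of its group for both. SOT18, a sulfotransferase of the last core step, stood at 95.1, 77.8 and 69.5 TPM at day and 39.1, 45.6 and 25.7 TPM at night (1.27 ± 0.24, adjusted p = 0.006), and SOT17 rose by 1.23. MYB51, a regulator of the indolic branch, was the member that fell (at 4.06, 4.07 and 3.92 TPM at day and 14.9, 10.2 and 14.7 TPM at night; -1.57 ± 0.31, adjusted p = 0.0077). The 12 rises became 5 without bou-2 day library 1, 4 without day library 2, 5 without night library 1, 8 without night library 2 and 3 without night library 3.

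**Figure D3:**
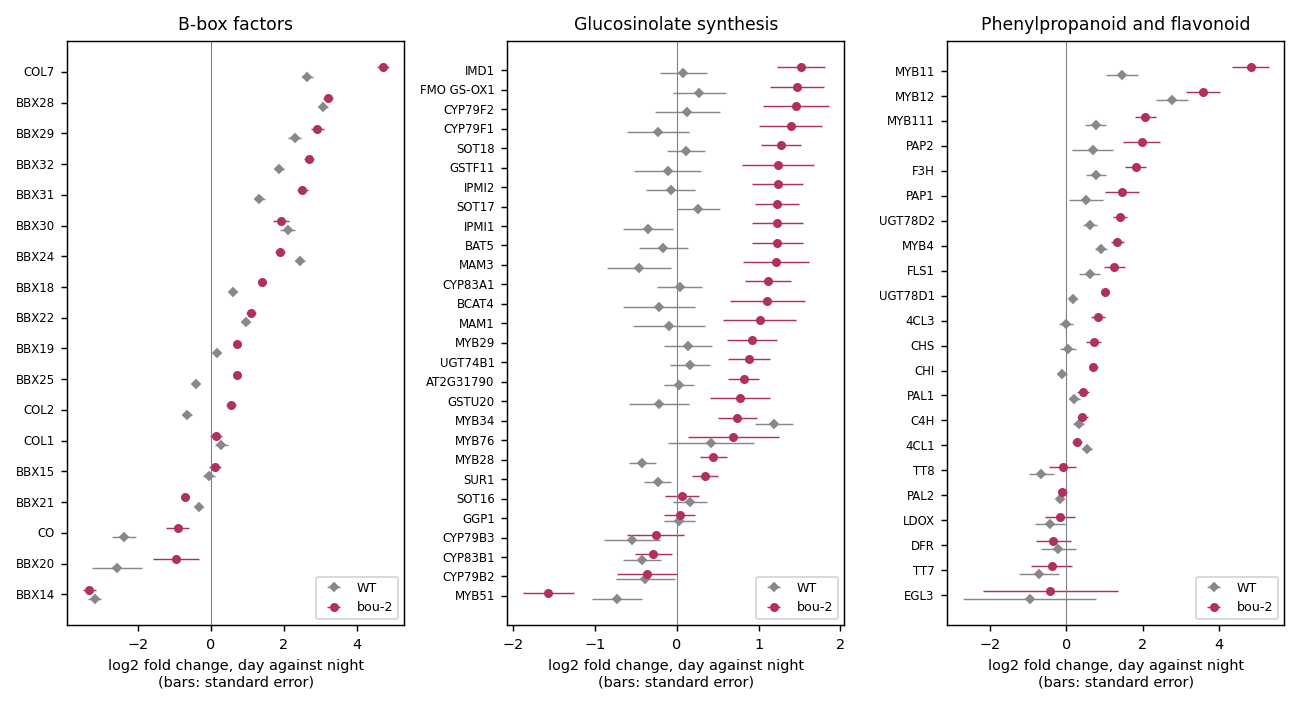
Log2 fold change of day against night with its standard error, in bou-2 and in WT, for every tested member of 3 lists (B-box factors, glucosinolate synthesis and its regulators, phenylpropanoid and flavonoid). In the glucosinolate panel the bou-2 median is 0.96 and the WT median is -0.09; in the phenylpropanoid and flavonoid panel they are 0.77 and 0.26.

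In sulfur assimilation the largest rise was that of SERAT2;1 (AT1G55920; chromosome 1, 20912116 to 20913565), a serine acetyltransferase that makes the carbon skeleton of cysteine. SERAT2;1 stood at 131, 159.97 and 166 TPM at day and 25.4, 27.9 and 23.7 TPM at night, a log2 change of 2.71 ± 0.16, adjusted p = 3.5e-06. Its mitochondrial relative SERAT2;2 stood at 163, 151 and 149.8 TPM at day and 97.1, 103 and 83.3 TPM at night (0.85 ± 0.17, adjusted p = 0.0086), while SERAT3;2 was lower (-1.34) and SERAT1;1 was not called (-0.48, adjusted p = 0.088). APK1 (AT2G14750), the kinase that makes the sulfate donor for SOT17 and SOT18, stood at 108, 90.1 and 78.2 TPM at day and 61.8, 59.97 and 49.1 TPM at night (0.83 ± 0.20, adjusted p = 0.021). APS2, an ATP sulfurylase, rose by 0.40 (adjusted p = 0.013), and APK3 was not called (adjusted p = 0.063). APK3 stayed uncalled in 17 of 23 alternatives. OASA1, which makes cysteine in the cytosol, was not called either (0.08). Among glutathione S-transferases, GSTU7 (2.48), GSTU28 (2.40), ERD9 (2.12) and GSTU1 (2.05) rose, whereas GSTF6 (-1.30) and GSTF8 (-0.64) were lower. The vacuolar sulfate exporters SULTR4;1 (-0.88) and SULTR4;2 (-1.21) and the root uptake transporter SULTR1;2 (-0.79) were lower at day.

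Over the whole category of sulfur metabolism in the deposited table, 15 of 107 tested genes rose and 12 fell, with a median of 0.00, and limma gave 16 and 19. Over all genes tested 7.68% were called higher and 7.69% lower, so both shares of this category lay above the background. The 12 falls were 7 without bou-2 day library 2 or 3, and 8 without any 1 of the night libraries. Of 7 tested markers of low sulfur, 3 were lower and none was called higher at any threshold or by any of the 3 tools. They were SULTR4;2 (at 9.73, 7.85 and 7.18 TPM at day and 19.6, 23.2 and 20.6 TPM at night), SULTR1;2 and AT1G04770 (at 13.2, 11.5 and 12.1 TPM at day and 37.7, 38.4 and 43.8 TPM at night; -1.57 ± 0.31, adjusted p = 0.0075). LSU1 (-0.04), LSU2 (-0.15) and SDI1 (-0.09) were not called.

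Of 22 phenylpropanoid and flavonoid genes, 12 rose, beside 7.68% over all genes, and none fell, at any threshold or by any tool (median 0.77). The activators of flavonol synthesis led. MYB11 stood at 3.59, 3.30 and 3.80 TPM at day and 0.211, 0.105 and 0.0825 TPM at night (4.83 ± 0.48, adjusted p = 0.0001), MYB12 rose by 3.59 and MYB111 stood at 24.98, 17.5 and 20.3 TPM at day and 6.34, 4.40 and 5.61 TPM at night (2.07 ± 0.28, adjusted p = 0.00083). The general flavonoid enzymes F3H (1.82), CHS (0.71) and CHI (0.71) rose as well. So did FLS1 of the flavonol branch (1.25) and the glycosyltransferases UGT78D1 (1.01) and UGT78D2 (1.40). CHS, the first enzyme of flavonoid synthesis, stood at 565, 501 and 469 TPM at day and 338, 332 and 362 TPM at night. The anthocyanin enzymes DFR (-0.34) and LDOX (-0.17) were not called, although the anthocyanin regulator PAP2 rose (1.97).

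In photorespiration, 3 of 28 genes were called, and all 3 rose, while 15.4% of all genes were called in either direction and 7.68% as higher, so the count is near the background. GLDP2, a P protein of glycine decarboxylase, stood at 637, 559.5 and 712 TPM at day and 359, 357 and 308 TPM at night (1.04 ± 0.13, adjusted p = 0.00049). CAT2, the main catalase of leaf peroxisomes, stood at 2281, 2298 and 2673 TPM at day and 1314, 1395 and 1280.5 TPM at night (1.00 ± 0.10, adjusted p = 0.00014). HPR, hydroxypyruvate reductase, rose by 0.62. Of 19 genes of serine biosynthesis GLDP2 rose and the alanine aminotransferase AlaAT1 was lower (at 144, 117 and 139.8 TPM at day and 233, 228 and 236 TPM at night; -0.66 ± 0.13, adjusted p = 0.0079). Both shares of this list were below the 7.68% higher and 7.69% lower over all genes. The serine hydroxymethyltransferase SHM1 was at 0.01 (adjusted p = 0.98), and the genes of the phosphorylated pathway PSAT (-0.73) and PSP (0.07) were not called. Photorespiration had 5 rises without WT day library 3 and 1 fall without WT day library 2, and the serine list had 2 rises without any 1 of the WT day libraries and 2 falls without WT day library 2 or bou-2 day library 1.

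Among 24 genes of nitrogen assimilation and the GABA shunt, 1 rose, ASP4 (0.65), and 2 were lower, GLT1 and GDH1. Over all genes 7.68% were called higher and 7.69% lower, so these counts are near or below the background. GLT1, the NADH-dependent glutamate synthase, stood at 23.1, 18.4 and 21.8 TPM at day and 42.2, 46.7 and 47.4 TPM at night (-0.96 ± 0.12, adjusted p = 0.00046). GDH1, a glutamate dehydrogenase, stood at 42.6, 34.4 and 41.5 TPM at day and 79.7, 81.7 and 71.3 TPM at night (-0.84 ± 0.16, adjusted p = 0.0063). GAD (-1.39, adjusted p = 0.051), POP2 (-0.38) and ASN2 (0.24) were not called. GAD stayed uncalled in 17 of 23 alternatives, POP2 in 20 and ASN2 in 23. Of 56 TCA cycle genes, 3 were lower and none was called higher (3 at an unadjusted p under 0.05, 2 by DESeq2 and 0 by limma), which for the falls is below the 7.69% over all genes. By the same criteria 8, 4 and 9 genes were lower. Among them, the isocitrate dehydrogenase IDH-VI and the plastid malate dehydrogenase AT3G47520 had log2 changes of -0.39 and -0.48. AT3G47520 stood at 125, 104 and 114 TPM at day and 172, 180.4 and 174 TPM at night. The succinate dehydrogenase genes SDH1-1 (0.34), SDH2-1 (0.35) and SDH3-1 (0.35) were not called. SDH2-1 stayed uncalled in only 14 of 23 alternatives, SDH1-1 in 21 and SDH3-1 in 23. The 3 TCA falls were 1 without bou-2 day library 2 or night library 3 and 5 without WT day library 1 or 2, and 1 rise appeared without any 1 WT day library or bou-2 day library 1. The rise of ASP4 was lost without bou-2 day library 3 or night library 3, and the nitrogen list had 6 falls without WT day library 2.

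In cytosolic glycolysis, 2 of 27 genes rose and 2 fell, shares close to the 7.68% and 7.69% over all genes. HKL1, a hexokinase-like protein, rose (1.16) with the pyruvate kinase gene AT3G49160 (1.77), while the aldolase FBA6 (-0.56) and a second pyruvate kinase gene, AT2G36580 (-0.63), were lower. Of 43 genes of the Calvin-Benson cycle 3 rose, among them RCA (0.48), which reactivates Rubisco, and the aldolase FBA1 (0.46), and 2 fell, FBA5 (-1.28) and PFK5 (-0.48). These shares too were below those over all genes, and by limma 1 was higher and 5 lower. FBA2 was not called (0.31). The third rise was the chloroplast gene of the large Rubisco subunit (ATCG00490, 2.12), whose libraries differed among themselves, at 45.9, 124 and 71.2 TPM at day and 36.6, 10.9 and 15.004 TPM at night. In the Calvin-Benson list leaving out 1 library gave 0 to 6 rises, with 0 without bou-2 day library 2 or night library 3, 1 without day library 3, night library 1 or 2 or WT night library 1, and 6 without WT day library 3. Its falls were 1 without bou-2 day library 1 or 3 or any 1 night library and 5 without WT day library 1, which also raised the glycolysis rises to 4.

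**Figure D4:**
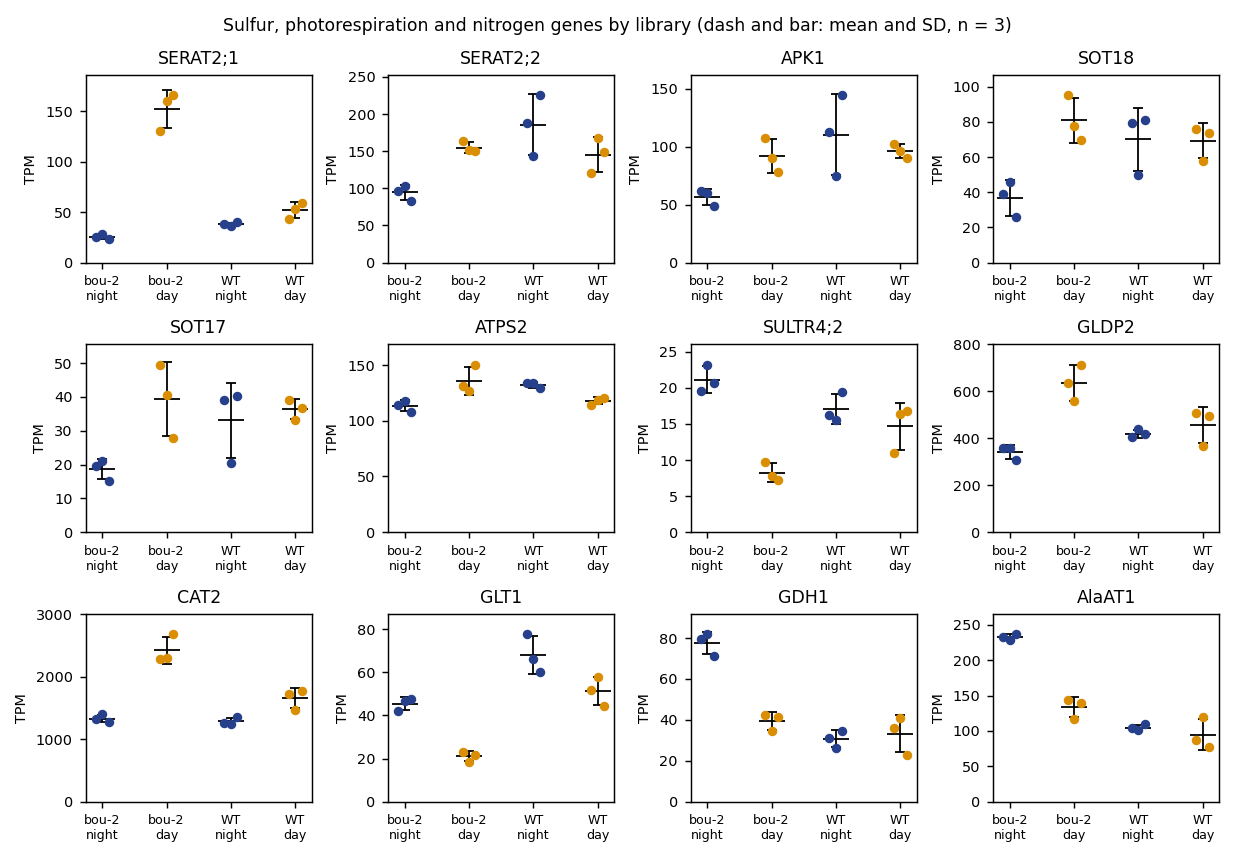
TPM in each library for 12 genes of sulfur metabolism (SERAT2;1, SERAT2;2, APK1, SOT18, SOT17, ATPS2, which is APS2, and SULTR4;2), photorespiration (GLDP2, CAT2), nitrogen assimilation (GLT1, GDH1) and the serine biosynthesis category (AlaAT1), in bou-2 and WT at night and day; dashes and bars are mean and SD, n = 3. In bou-2 the day points of SERAT2;1 lie between 131 and 166 TPM against 23.7 to 27.9 TPM at night.

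Of 16 genes of salicylic acid defence 3 were lower, beside 7.69% over all genes, and none was called higher (median -1.21; 0 higher at an unadjusted p under 0.05 and by DESeq2 and limma). ICS1, which makes salicylic acid, stood at 7.52, 6.94 and 9.51 TPM at day and 26.7, 16.9 and 21.2 TPM at night (-1.30 ± 0.31, adjusted p = 0.02), and EDS1 and CBP60G had log2 changes of -0.86 and -1.44. None of these calls was kept without bou-2 day library 1 or 2 or night library 1 or 3, 1 was kept without day library 3, and 2 without night library 2, while 5 and 6 members were lower without WT day library 2 and 3. The marker PR1 was not called (-1.10, adjusted p = 0.58). Of 21 jasmonate genes none was called by edgeR (median -0.55), while 7 were lower at an unadjusted p under 0.05, 4 by DESeq2 and 3 by limma, and none was higher by any of these. Without WT day library 2 there were 4 jasmonate falls, 2 without WT day library 1 or 3, WT night library 2 or bou-2 day library 1, and 1 without WT night library 3. Across all alternatives run, 0 to 8 jasmonate genes were called lower, so the absence of calls depends on the processing. Of 10 genes of touch and rapid stress response, TCH2 rose (0.90) and WRKY40 and TCH3 were lower, beside 7.68% higher and 7.69% lower over all genes. WRKY40, a repressor of defence, stood at 5.74, 5.02 and 5.72 TPM at day and 23.5, 19.2 and 22.3 TPM at night (-1.85 ± 0.31, adjusted p = 0.003). The touch list had 4 falls without WT night library 3 and 2 rises without bou-2 day library 1.

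Mitochondrial stress genes moved in both directions, 3 of 16 higher and 4 lower, beside 7.68% higher and 7.69% lower over all genes. NDA1, an alternative NADH dehydrogenase of the inner membrane, stood at 193, 175 and 188 TPM at day and 82.2, 91.7 and 84.7 TPM at night (1.24 ± 0.14, adjusted p = 0.00024). AOX1D, an alternative oxidase, stood at 4.23, 1.79 and 4.82 TPM at day and 50.5, 13.9 and 12.4 TPM at night (-2.72 ± 0.68, adjusted p = 0.024), with night library 1 far above the other night libraries. OM66 (-1.56) and NDB2 (-0.81) were lower too, as was AOX1B (at 0.367, 0 and 0.0881 TPM at day and 1.23, 2.32 and 6.14 TPM at night), and AOX1A was not called (0.61, adjusted p = 0.063). The 4 falls were 0 without bou-2 day library 2 or 3 or night library 1, 1 without day library 1 or night library 2 or 3, and 2 without WT night library 2. The 3 rises were 1 without bou-2 day library 2 or 3 or night library 2 or 3.

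Of 16 heat shock genes 4 rose and none was called lower (1 at an unadjusted p under 0.05, 0 by DESeq2 and by limma). For this list and those of cold, auxin and iron genes below, the shares over all genes were 7.68% higher and 7.69% lower. HSFA2, a heat shock factor, stood at 14.1, 17.3 and 19.96 TPM at day and 3.35, 3.69 and 2.73 TPM at night (2.53 ± 0.40, adjusted p = 0.002), with MBF1C (1.78), HSFB2B (1.50) and HSP101 (0.97). Of 13 cold genes RD29A (-1.24) and AT4G33980 (at 0, 0.228 and 0 TPM at day and 4.61, 3.27 and 3.65 TPM at night) were lower. Without any 1 bou-2 library or WT night library 1 the list kept 1 fall, and it had 4 without WT day library 1. None of the 13 was higher at any threshold or by any tool. Of 22 genes of auxin response and elongation 5 rose, among them the early auxin genes IAA3 (1.12) and IAA2 (0.85), and the expansin EXPA8 fell (-1.18). The rises were 3 without bou-2 day library 2 or 3 or night library 1 or 3 and 2 without night library 2, and the fall was kept only without bou-2 day library 3 among the 6 bou-2 libraries. Of 15 iron genes 3 rose, all of them ferritins, which store iron. FER1 stood at 689.6, 796 and 963 TPM at day and 305, 289 and 259 TPM at night (1.66 ± 0.26, adjusted p = 0.002), FER4 rose by 0.66 and FER2 by 2.01, and the transporter OPT3 was lower (-0.50), a call that was lost without any 1 bou-2 library or WT night library 1.

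In the lists of protein synthesis the shares called lay below those over all genes (7.68% higher and 7.69% lower). Ribosome biogenesis had 0 of 20 called by edgeR (2 higher at an unadjusted p under 0.05, 2 by DESeq2, 0 by limma, 1 without WT day library 1 or 3 or WT night library 3, and none lower by any of these). Of 282 cytosolic ribosomal proteins 8 were higher and 1 lower by edgeR, 16 and 1 by DESeq2, and 3 and 5 by limma on log2(TPM + 1), so the balance of directions turned with the scale. Of 52 organellar ribosomal proteins 0 were called by edgeR (5 higher and 1 lower at an unadjusted p under 0.05, 3 and 0 by DESeq2, 2 and 1 by limma, and 1 higher without WT day library 2 or 3, WT night library 2 or bou-2 night library 1). Of 245 pentatricopeptide repeat proteins, which act on organellar RNA, 12 were higher and 3 lower by edgeR, 17 and 3 by DESeq2, and 6 and 9 by limma, which again turned the balance. Leaving out 1 bou-2 library brought the cytosolic rises to between 0 and 4, with 0 without day library 2 or night library 2, and ended the 1 fall each time. The repeat proteins had 5 rises without bou-2 day library 3 or night library 2 or 3, 1 fall without day library 1 or night library 2, and 0 falls without day library 2 or night library 1. Without WT day library 1 the cytosolic rises were 13 and the falls of repeat proteins 7. The 110 organelle transcripts tested went the other way, with 16 higher, a share above the 7.68% over all genes, and 0 lower. Organelle transcripts held 0.042, 0.1065 and 0.060% of the counts in bou-2 day libraries 1, 2 and 3. At night they held 0.041, 0.019 and 0.022%. Day library 2 was also highest in AT2G01021, and the part of library make-up in these rises was not tested.

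Markers of other cell types were read for the tissue. The 5 mesophyll markers summed to 24070 to 29210 TPM in the bou-2 day libraries and to 27730 to 29860 TPM at night, and the flower markers to at most 0.792 TPM in any bou-2 library. Of the mesophyll markers 2 were called higher. The root hair markers EXPA7 and COBL9 were at 0 in all 6 bou-2 libraries, and the 6 root markers summed to 26.4 to 36.0 TPM at day and 22.7 to 23.6 TPM at night, with SCR called higher (log2 change 0.59). The epidermis markers summed to 119.7 to 188 TPM at day and 127 to 175 TPM at night, with 1 of 4 called higher. The 7 vascular markers, of which none was called by edgeR, at an unadjusted p under 0.05, by DESeq2 or by limma, summed to 84.1 to 148 TPM at day and 122 to 193 TPM at night. Across all alternatives run, 0 to 1 of them were called lower. The guard cell markers summed to 21.4 to 26.5 TPM at day and 26.0 to 27.8 TPM at night, and those of dividing cells to 24.8 to 42.4 and 27.8 to 35.7 TPM. Their part in the changes above was not tested.

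The night-to-day change of bou-2 was then set beside that of WT in the same model. In WT 1936 genes were called (9.46% of those tested), 1142 higher at day (5.58%) and 794 lower (3.88%). Of the 1572 genes higher in bou-2, 664 were also higher in WT, which is 42.2% of the bou-2 genes and 58.1% of the WT genes. Of the 1574 lower in bou-2, 386 were also lower in WT (24.5% and 48.6%). A call in bou-2 alone does not show a difference, so the difference of the changes was tested as an interaction term. It was called for 110 genes with a more positive change in bou-2 (0.538%) and 132 with a more negative change (0.645%). Of these 242 genes 198 were called in bou-2 itself and 119 in WT, and 31 genes were called in opposite directions. The 3 WT day libraries differed more among themselves than those of any other group, and without WT day library 3 the difference was called for 548 and 534 genes. Leaving out a bou-2 library gave 22 to 82 and 30 to 62 genes, and leaving out a WT night library gave 33, 42 and 53 with a more positive and 34, 41 and 74 with a more negative change.

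**Figure D5:**
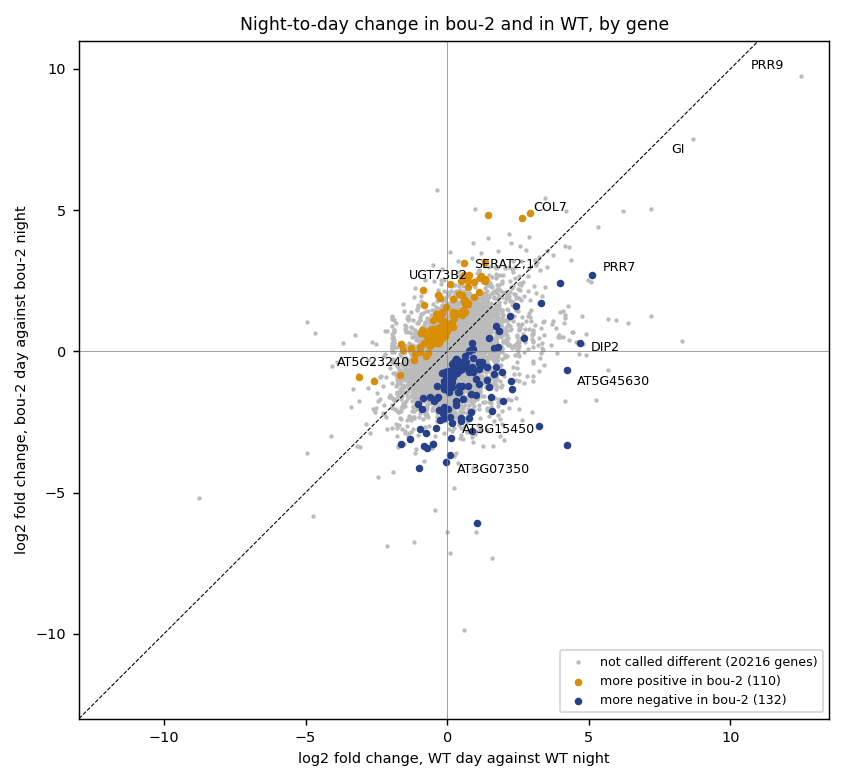
Log2 fold change of day against night for each of the 20458 genes tested, in WT (horizontal axis) and in bou-2 (vertical axis); the 110 genes with a called more positive change in bou-2 are orange, the 132 with a more negative change are blue, and the other 20216 are grey. DIP2 lies far to the right at a WT change of 4.68 and a bou-2 change of 0.29.

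Among the 10 genes with the largest more positive change in bou-2 was UGT73B2. UGT73B2, a flavonol glucosyltransferase, stood at 30.7, 34.1 and 39.9 TPM at day and 8.28, 7.95 and 9.19 TPM at night in bou-2 and at 2.40, 6.30 and 4.64 TPM at day and 7.41, 9.59 and 9.43 TPM at night in WT (difference of the log2 changes 3.03 ± 0.40, adjusted p = 0.0084). UGT75B1 (2.14), UGT84A1 (2.30) and the glutathione S-transferase GSTU7 (1.97) also had a called rise in bou-2 and no call in WT. Their differences were less stable, since the call was lost in 16 of 22 alternatives for UGT84A1, 8 for UGT75B1 and 5 for GSTU7, against 0 for UGT73B2. SERAT2;1 stood at 43.6, 53.6 and 58.8 TPM at day and 37.8, 36.5 and 39.9 TPM at night in WT, so that its change of 2.71 in bou-2 stood against 0.58 in WT (difference 2.12 ± 0.22, adjusted p = 0.0028). AT1G26790, a Dof factor, was at 23.4, 20.4 and 27.8 TPM at day and 45.4, 43.7 and 47.8 TPM at night in WT and fell there (-0.81), whereas it rose in bou-2 (1.65; 38.5, 42.5 and 43.5 TPM at day and 14.97, 15.6 and 12.9 TPM at night). AT1G76600 (2.55, lost in 12 of the 22), AT3G15310, annotated as a transposable element gene (2.33), and the J-domain gene AT5G23240 (2.22) were also among the 10 largest, the last because it fell less in bou-2 (-0.89) than in WT (-3.11).

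COL7 rose by 4.72 in bou-2 and by 2.64 in WT. Its night level was 4.84, 4.24 and 6.23 TPM in bou-2 and 25.7, 24.97 and 33.9 TPM in WT, while its day level was 129, 117 and 121 TPM in bou-2 and 166, 149 and 168 TPM in WT, with no overlap between the lines at either time. In all, 5 of the 18 B-box factors had a more positive change in bou-2, beside 0.538% of all genes tested. BBX25 (0.71 in bou-2, -0.42 in WT) and COL2 (0.56 and -0.65) were called in opposite directions, and BBX31 and BBX18 rose in both lines. NRT1.1 was also called in opposite directions, 0.78 in bou-2 and -0.52 in WT (difference 1.299 ± 0.12, adjusted p = 0.0023), with WT at 77.3, 76.95 and 75.1 TPM at day and 112, 118 and 127 TPM at night.

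Genes with a more negative change in bou-2 included several that were high in bou-2 at night. AT3G07350 was at 3.16, 3.16 and 2.40 TPM at day and 3.69, 3.55 and 2.56 TPM at night in WT, and its difference was -3.88 ± 0.30, adjusted p = 0.0013. AT5G19120 (-3.74), AT3G15450 (-3.23), PXMT1 (-3.69) and YLS9 (-3.70) likewise fell in bou-2 and were not called in WT. AT3G15450 stood at 12.5, 7.62 and 10.3 TPM at day and 111, 102 and 65.8 TPM at night in bou-2, and at 16.3, 24.95 and 11.6 TPM at day and 21.2, 15.8 and 14.7 TPM at night in WT. The trehalose phosphate synthase homologues TPS8 (-2.13), TPS10 (-1.30) and TPS11 (-1.80) belonged here too. TPS11 was at 3.58, 6.20 and 3.88 TPM at day and 6.46, 6.46 and 5.21 TPM at night in WT, so its day levels overlapped between the lines and its night levels did not. For other genes the WT moved. DIP2, a small protein with a part in resistance to potyviruses, rose in WT from 2.40, 1.14 and 6.58 to 121, 52.3 and 73.3 TPM (4.68) and stood at 25.7, 31.7 and 24.03 TPM at day and 19.2, 24.6 and 29.1 TPM at night in bou-2. AT5G45630 (-4.88) and AT4G15680 (-3.30) also rose in WT and were not called in bou-2, and AT2G28400 (-3.71) and AT1G30250 (-3.14) were called in opposite directions.

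Among clock genes PRR7 and RVE7 differed. PRR7 rose by 2.71 in bou-2 and by 5.10 in WT (difference -2.40 ± 0.29, adjusted p = 0.0067), and its night level was 0.947, 1.09 and 1.101 TPM in WT, below each bou-2 night library. PIF4 rose by 2.44 in bou-2 and by 3.98 in WT, where it reached 13.9, 10.8 and 14.8 TPM at day (difference -1.54 ± 0.23, adjusted p = 0.018). LHCB2.2 rose less in bou-2 (1.73 against 3.31, difference -1.58 ± 0.28, adjusted p = 0.033), and GBSS1 rose more (2.61 against 1.16, difference 1.45 ± 0.27, adjusted p = 0.037).

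The lists that follow are to be read beside the shares over all genes tested. In WT 5.58% were called higher and 3.88% lower. The difference between the lines was called more positive in bou-2 for 0.538% and more negative for 0.645%, so 0 calls in a short list say little. In the glucosinolate list, 1 of 28 genes was called higher in WT and the median WT change was -0.09. The difference between the lines passed the test for 0 of the 28 genes by edgeR, for 15 in the positive direction at an unadjusted p under 0.05, for 7 by DESeq2 and for 0 by limma. CYP79F1 had a difference of 1.62 ± 0.54, adjusted p = 0.2, and SOT18 of 1.16 ± 0.34, adjusted p = 0.14. In the phenylpropanoid and flavonoid list 3 of 22 genes rose in WT, and the difference was called for MYB11 (3.37 ± 0.63, adjusted p = 0.038) and UGT78D1 (0.83 ± 0.13, adjusted p = 0.019). The salicylic acid list had 0 genes called in WT (2 higher and 1 lower at an unadjusted p under 0.05, 1 and 1 by DESeq2, 0 and 1 by limma), and its median was 0.28 there against -1.21 in bou-2. For this list the difference between the lines was called for 0 of 16 genes by edgeR and by limma. In the negative direction it was called for 3 by DESeq2 and for 5 at an unadjusted p under 0.05.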

How the data were processed

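Poly(A) RNA from bou-2 and WT (Col-0) rosettes was sequenced by the authors on an Illumina HiSeq 3000 (TruSeq RNA v2), with 3 libraries per line and time. Per the labels and the methods, the authors quantified reads with kallisto 0.43.0 against TAIR10 transcripts and tested them with sleuth 0.28.1, and they deposited estimated counts and TPM for each transcript and library. Group means and SDs, log2 fold changes and q-values of the authors stand in the same table and were not used. Of 41415 lines 23 were repeats. RefSeq (TAIR10.1) supplied positions and sequences for 32570 of 33326 genes, matched by locus.

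For every locus the transcript most abundant in WT, by mean TPM over its 6 libraries, stood for the gene. The estimated counts of all 12 libraries were rounded, filtered with filterByExpr (minimum count 10, total 15, proportion 0.7), scaled by TMM and fitted with 1 mean per line and time in edgeR 4.0.16 (R 4.3.3; quasi-likelihood). Benjamini-Hochberg adjustment covered 26153 transcripts, and calls were made below an adjusted p of 0.05. Standard errors are the log2 change divided by the square root of F. The biological coefficient of variation was 28.4%. Library totals ran from 15911356 to 33046562 estimated counts, which limits precision for low genes most in the bou-2 day libraries. The labels name biological triplicates but not how many plants each held, so p-values measure the spread among these libraries only.

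Alternatives were DESeq2 1.42.0 size factors and Wald test, no filter, limma 3.58.1 on log2(TPM + 1), a replicate block, counts summed per gene, organelle transcripts or the 10 most abundant transcripts left out, thinning to the lowest library, a fit of the 6 bou-2 libraries, and leaving out each library. AT2G01021 was left out as a further alternative chosen after seeing the data. The pipeline was tested on simulated data. Members and gene lists were chosen with earlier results of these data known. Named genes were the 10 largest rises and 10 largest falls with a mean of at least 5 TPM at either time and no overlap of libraries, organelle genes apart, up to 6 called members of each list in each direction with its defining members, the 10 largest differences from WT in each direction, genes whose change the study's results name, and BOU. Where further called list members are named, they were added after their values were seen. List medians cover tested genes. A gene that the rule would name is not reported here. The metabolic categories are those of the deposited table.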

Additional observations from a re-analysis of the deposited data

Results flagged for a closer look

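The day-night change differed between bou-2 and WT, by the interaction term of the edgeR model at an adjusted p under 0.05, for 110 genes with a more positive and 132 with a more negative change in bou-2. The values that follow are differences of log2 changes, bou-2 minus WT, for the named genes among them. Those more positive by at least 2 were MYB11 (3.37), UGT73B2 (3.03), AT1G76600 (2.55), AT1G26790 (2.46), AT3G15310 (2.33), UGT84A1 (2.30), AT5G23240 (2.22), UGT75B1 (2.14), SERAT2;1 (2.12) and COL7 (2.08). Smaller positive differences were found for GSTU7 (1.97), the starch synthase GBSS1 (1.45), NRT1.1 (1.299), the B-box factors COL2 (1.21), BBX31 (1.17), BBX25 (1.12) and BBX18 (0.81), UGT78D1 (0.83), the ferritin FER3 (0.83) and SEP2 (0.74).

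The most negative differences were those of AT5G45630 (-4.88), DIP2 (-4.39), AT3G07350 (-3.88), AT5G19120 (-3.74), AT2G28400 (-3.71), YLS9 (-3.70), PXMT1 (-3.69), AT4G15680 (-3.30), AT3G15450 (-3.23) and AT1G30250 (-3.14). Among list members the negative differences were those of PRR7 (-2.40), TPS8 (-2.13), TPS11 (-1.80), the heat shock factor HSFB2A (-1.61), LHCB2.2 (-1.58), PIF4 (-1.54), TPS10 (-1.30), the glutamyl transferase GGT1 (AT4G39640; -1.08), LBD38 (-1.05) and RVE7 (-0.95).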

How the results depend on the processing

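Under the alternatives that kept all 12 libraries, the genes called higher at day in bou-2 ran from 1175 (limma on log2(TPM + 1)) to 2295 (DESeq2's Wald test). Those called lower ran from 1181 (replicate block) to 2739 (limma). The fit of the 6 bou-2 libraries alone called 2375 higher and 2187 lower. Leaving out 1 library gave 977 to 1941 higher and 718 to 2041 lower. The differences from WT, 110 more positive and 132 more negative, were 583 and 508 by DESeq2's Wald test and 207 and 205 with counts summed per gene, the more negative ones were 87 after thinning every library to the lowest total, and leaving out 1 library gave 22 to 548 and 30 to 534. The replicate numbers did not pair the samples, since the deviations of same-numbered bou-2 libraries correlated at -0.00132, -0.0552 and 0.0545 and not every library correlated best with its own number, and a replicate block gave 1308 higher and 1181 lower in bou-2 and 49 and 47 differences. Of 182 named genes called in bou-2, 125 were called under every alternative and 149 under every one that kept all libraries, and for the 20 largest differences from WT these numbers were 9 and 13. A further 14 genes, those that the study's results name and BOU, were not called in bou-2. Of these 14, 10 were called under 1 or more alternatives. AT1G49700 reversed to a log2 change of 0.10 with counts summed per gene, which joins its transcripts. The causes of the other shifts were not tested.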
